A study of Mus musculus with 8 samples.

Results

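The chemokine ligand genes are described here in primary mouse embryonic fibroblasts, connective tissue cells taken into culture from embryos. A gene was counted if its single platform symbol starts with Ccl or Cxcl and a digit, or is Cx3cl1 or Xcl1. These were 34 of the 19938 genes measured on Affymetrix arrays. Members were chosen by symbol. The only measured value used was the mean over the 8 samples, by which the brightest probe set was selected for the 2 ligands with more than 1, Ccl19 and Ccl25. The contrast of the monocyte-attracting Ccl2 and Ccl7, the neutrophil-attracting ligands and the interferon-induced Cxcl10 was posed with earlier results of these data known, so their changes are no independent evidence of a direction. A further 6 ligand symbols, Ccl21a to Ccl21d, Ccl27a and Ccl27b, occurred only on probe sets with several symbols and were not analysed.

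The samples came from line A (MEF10) and line B (MEF16), each without tamoxifen, in which state the cells make the pyruvate kinase isoform PKM2, and with tamoxifen, in which state they make PKM1. Each of the 4 groups held 2 samples. The labels give no allele, Cre driver, dose, duration or embryo age. All PKM1 samples had tamoxifen and no PKM2 sample had it, so the drug and the isoform cannot be told apart. Pyruvate kinase makes pyruvate at the end of glycolysis, and the design asks how expression differs once cells switch from PKM2 to PKM1.

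The titles name fibroblasts, but some other labels mention mammary tumors. All 13 fibroblast markers measured were brighter on average than the 95th percentile of 1027 olfactory receptor genes, 6.89 on the log2 scale, which served as a rough guide to dim signal, since probe sets differ in brightness. Of 11 epithelial and mammary markers, 5 were at or below it, Epcam, Cdh1, Krt5, Elf5 and Csn2. The other 6, Krt8, Krt14, Krt18, Krt19, Wap and Cldn4, were above it. Samples of a group correlated at 0.9956 and 0.9974 in line A and at 0.9907 and 0.9894 in line B over all genes. The labels do not say whether they were separate cultures. The p-values set a difference against the spread within groups, and that spread may be technical. With 8 arrays the number of samples limits the precision.

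Chemokines are small secreted proteins that bind receptors on white blood cells and guide where those cells move. The CC ligands of the Ccr2 receptor draw monocytes, CXC ligands of Cxcr2 draw neutrophils, and CXC ligands of Cxcr3 are induced by interferons and draw activated T cells. Fibroblasts make several of them in response to infection or injury, largely through the transcription factor NF-kappaB and, for Cxcl10 and its neighbours, through interferon signalling. Cxcl12 and Cxcl14, by contrast, are made by resting fibroblasts in many tissues.

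Ccl2, Ccl7, Ccl8, Ccl11, Cxcl10 and Cxcl14 rose with tamoxifen, while the neutrophil-attracting Cxcl3 and Cxcl5 fell. In the fit over both lines 8 of 34 ligands passed (limma, adjusted p of 0.05 over all genes), 6 higher and 2 lower. That is 23.5% of the ligands, beside 1.32% of all genes tested, of which 0.808% were called higher and 0.512% lower. The median log2 fold change of the 34 ligands was 0.01, with 17 above and 17 below 0, and that of all genes was -0.01. All 8 had the same sign in both lines. The count was 4, 4, 5 and 4 when line A PKM2 replicate 1, line A PKM2 replicate 2, line A PKM1 replicate 1 or line A PKM1 replicate 2 was left out, and 6 to 8 without any 1 of the line B samples. The ligands Ccl2, Ccl7, Ccl11 and Cxcl3 passed in each of these 8 fits. With no term for the line 3 ligands passed, Ccl8, Cxcl10 and Cxcl14.

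**Figure D1:**
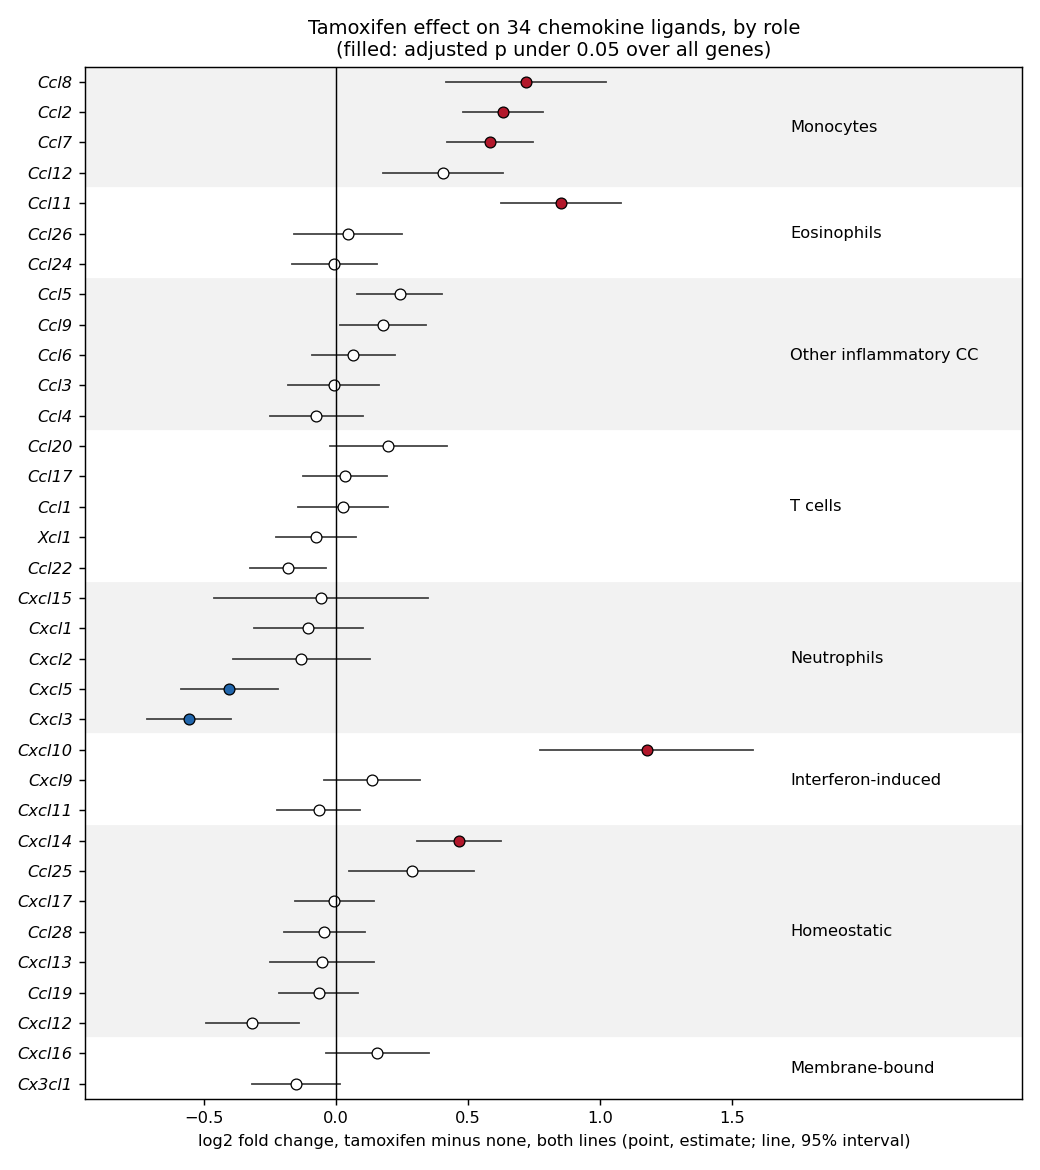
Log2 fold change of each of the 34 ligands with tamoxifen, fitted over both lines, ordered by role; points are estimates, lines 95% intervals, and filled points passed an adjusted p of 0.05 over all genes (red higher, blue lower). Of the 4 ligands marked Monocytes 3 are filled red, and of the 5 neutrophil-attracting ligands 2 are filled blue.

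Promoter windows were read for motifs of the interferon and NF-kappaB pathways that are known to drive ligand genes. RefSeq windows of 250 bases before to 50 bases after a start site (build GRCm38.p6) were matched to 23 of the 34 ligands by gene ID. Those of Ccl2, Ccl4, Ccl5, Ccl7, Ccl11, Ccl24, Ccl26, Cxcl5, Cxcl11, Cxcl16 and Cxcl17 were not matched. Both strands were searched for the core of the interferon-stimulated response element (GAAA, any 2 bases, GAAA), for the 10-letter NF-kappaB consensus, and for TATAAA. The core was in 3.44% of all 32851 windows, the NF-kappaB consensus in 4.5% and TATAAA in 13.6%. Among the 24 windows of ligands they were in 3, 6 and 9. A match describes the letters only and shows no binding.

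Cxcl10, Cxcl14 and Ccl8 are shown as ligands that rose and Cxcl3 as a ligand that fell. Cxcl1 is shown as a close relative of Cxcl3, on the same chromosome, that did not pass. The windows are chr5:92348840-92349139 (- strand), chr13:56296502-56296801 (- strand), chr11:82114935-82115234 (+ strand), chr5:90785851-90786150 (+ strand) and chr5:90890995-90891294 (+ strand). Capitals mark the matches of any of these motifs, 5′ to 3′ on the gene's strand.
Cxcl10: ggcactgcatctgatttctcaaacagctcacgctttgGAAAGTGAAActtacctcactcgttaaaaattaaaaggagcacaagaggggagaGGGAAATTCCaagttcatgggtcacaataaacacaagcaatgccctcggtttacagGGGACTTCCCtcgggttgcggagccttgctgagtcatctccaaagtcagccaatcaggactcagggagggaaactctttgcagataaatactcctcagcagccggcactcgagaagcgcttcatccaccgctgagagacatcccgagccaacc
Cxcl14: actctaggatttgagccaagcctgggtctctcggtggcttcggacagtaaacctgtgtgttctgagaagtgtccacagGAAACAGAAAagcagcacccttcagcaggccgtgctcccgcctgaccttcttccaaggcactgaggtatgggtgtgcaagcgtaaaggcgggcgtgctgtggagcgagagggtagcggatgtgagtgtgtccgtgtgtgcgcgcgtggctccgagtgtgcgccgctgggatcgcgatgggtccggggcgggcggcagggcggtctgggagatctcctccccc
Ccl8: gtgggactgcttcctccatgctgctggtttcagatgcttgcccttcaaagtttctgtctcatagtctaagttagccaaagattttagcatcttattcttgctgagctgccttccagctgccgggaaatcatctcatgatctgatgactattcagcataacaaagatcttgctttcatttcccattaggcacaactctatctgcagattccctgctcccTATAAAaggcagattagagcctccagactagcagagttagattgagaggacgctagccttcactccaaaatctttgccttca
Cxcl3: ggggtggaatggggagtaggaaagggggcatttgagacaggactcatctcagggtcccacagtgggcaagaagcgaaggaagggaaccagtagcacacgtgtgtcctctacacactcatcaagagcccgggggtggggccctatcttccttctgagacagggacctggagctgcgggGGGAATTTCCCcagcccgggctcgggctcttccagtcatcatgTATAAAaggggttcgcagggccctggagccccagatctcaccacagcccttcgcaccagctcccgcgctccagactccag
Cxcl1: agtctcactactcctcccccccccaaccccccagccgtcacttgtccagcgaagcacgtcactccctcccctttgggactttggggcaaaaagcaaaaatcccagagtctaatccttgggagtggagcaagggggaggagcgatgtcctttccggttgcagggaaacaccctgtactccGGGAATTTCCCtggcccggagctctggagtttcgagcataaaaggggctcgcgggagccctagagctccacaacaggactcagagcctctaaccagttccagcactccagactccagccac
Cxcl10 holds the interferon element core GAAAGTGAAA 213 bases before the start site and NF-kappaB matches 159 and 103 bases before it, GGGAAATTCC and GGGACTTCCC. Cxcl14 holds the core as GAAACAGAAA, 172 bases before the start site. Ccl19, which did not pass, has the same 10 letters as Cxcl10, 208 bases before its start site. Cxcl3, Cxcl1 and Cxcl2 share the NF-kappaB match GGGAATTTCC, which begins 73, 71 and 97 bases before the start site and overlaps a second match on the other strand by all but 1 letter. Of these 3 relatives Cxcl3 alone passed, and the difference between them was not tested. In Ccl8 the only match is TATAAA, 32 bases before the start site.

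Of the 4 ligands grouped as monocyte chemoattractant proteins 3 rose, with a median log2 fold change of 0.61. Ccl2, a main monocyte attractant of fibroblasts and a ligand of Ccr2, rose 1.55-fold. Its log2 level was 10.31 and 10.49 in line A without tamoxifen and 11.01 and 11.09 with it, and 10.99 and 10.98 in line B without and 11.64 and 11.56 with it. The 4 samples with tamoxifen all lay above the 4 without, though line B without tamoxifen was nearly as high as line A with it. The log2 fold change was 0.63 (SE 0.07, n = 8 samples, limma adjusted p = 0.0020), 0.65 in line A and 0.61 in line B (SE 0.10 each). Tested within each line, it passed in line A (adjusted p = 0.037) and not in line B (0.14). The difference between these effects was -0.04, with a 95% interval from -0.36 to 0.29.

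Ccl7, a relative that uses the same receptor, rose 1.5-fold. It read 9.73 and 9.94 in line A without tamoxifen and 10.46 and 10.51 with it, and 10.28 and 10.15 in line B without and 10.75 and 10.71 with it. As for Ccl2, all 4 treated samples were above all 4 untreated ones, and untreated line B was above untreated line A. On the log2 scale the change was 0.58 (SE 0.07, adjusted p = 0.0047), with 0.65 in line A (adjusted p = 0.042) and 0.51 in line B (0.26). The effect in line B minus that in line A was -0.14 (95% interval -0.47 to 0.19).

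Ccl8, grouped here with the monocyte chemoattractant proteins by its name and place in the gene cluster, rose 1.65-fold from dim levels. Its values were 5.73 and 6.19 in line A without and 6.95 and 6.96 with tamoxifen, against 6.11 and 6.44 in line B without and 6.66 and 6.78 with it. The conditions did not overlap, but 6 of the 8 samples, both treated line B samples among them, were below the dim guide, and the treated line A samples were just above it. The fitted log2 fold change, for a probe set whose mean is not above that guide, was 0.72 (SE 0.14, adjusted p = 0.034), 0.99 in line A (SE 0.16, adjusted p = 0.045) and 0.45 in line B (SE 0.16, 0.87). The line B effect minus the line A effect was -0.55 (unadjusted p = 0.041, adjusted p = 1 in limma). Its call over both lines was lost, with adjusted p from 0.056 to 0.17, without any 1 of the 4 line A samples, line B PKM2 replicate 1 or line B PKM1 replicate 2.

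Ccl12, also a Ccr2 ligand of this cluster, did not pass over both lines. It was at 5.67 and 5.58 in line A without tamoxifen and 5.69 and 5.91 with it, and at 6.08 and 5.93 in line B without and 6.65 and 6.63 with it. All samples were below the dim guide. The log2 fold change was 0.40 (SE 0.10, adjusted p = 0.12), 0.17 in line A and 0.64 in line B (SE 0.11 each). It passed when the effects of the lines, taken from the group means, were averaged, where Cxcl5 did not. Neither line alone passed, nor did the difference of 0.46 between them (unadjusted p = 0.015, adjusted p = 1).

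Ccl11, known as eotaxin and a ligand of Ccr3 on eosinophils, rose 1.81-fold. Line A read 7.94 and 7.84 without tamoxifen and 8.57 and 8.83 with it, and line B 8.61 and 8.32 without and 9.18 and 9.54 with it. Within each line the samples did not overlap, but untreated line B reached the lower treated sample of line A. The log2 fold change was 0.85 (SE 0.10, adjusted p = 0.0039), with 0.81 in line A and 0.89 in line B (SE 0.15 each). Neither line passed on its own (adjusted p = 0.075 and 0.16). The other eosinophil attractants, Ccl24 and Ccl26, had a log2 change of -0.01 (SE 0.07) and 0.04 (SE 0.09) and stayed dim.

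The genes Ccl2, Ccl7, Ccl11, Ccl12, Ccl8 and Ccl1 follow each other in this order on chromosome 11, with no other protein-coding gene between them in the RefSeq table (GRCm38.p6). Of these 6 neighbours 4 rose, and the log2 fold changes ran from 0.03 for Ccl1, a T cell attractant, to 0.85 for Ccl11, with a median of 0.61. A second run on the same chromosome holds Ccl5, Ccl9, Ccl6, Ccl3 and Ccl4, and 0 of these 5 passed, with changes from -0.08 to 0.24 and a median of 0.06. This grouping by position was made after the values were seen. Whether probes of these close relatives match each other's transcripts was not analysed here.

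Ccl5, an attractant of T cells and monocytes, read 7.87 and 7.78 in line A without tamoxifen and 8.08 and 8.02 with it, and 7.76 and 7.98 in line B without and 8.19 and 8.07 with it. The conditions did not overlap, but the change of 0.24 (SE 0.07) did not pass (adjusted p = 0.21). Ccl9, a ligand of Ccr1, was at 6.95 and 6.98 in line A without and 7.09 and 7.12 with tamoxifen, and at 6.95 and 6.78 in line B without and 6.97 and 7.19 with it. Its change was 0.18 (SE 0.07, adjusted p = 0.44). The macrophage inflammatory protein genes Ccl3 and Ccl4 had a log2 change of -0.01 and -0.08 (SE 0.08 each), and Ccl6 of 0.06 (SE 0.07).

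Macrophages also make CC ligands, so their markers are given beside them. Of 14 markers 0 passed with tamoxifen in limma (3 had an unadjusted p under 0.05, beside 1964 of all 19938 genes). The median change of the markers was 0.05. Their mean level ran from 6.56 to 6.65 in line A without and 6.66 to 6.71 with tamoxifen, and from 6.99 to 7.00 in line B without and 7.09 to 7.10 with it. Of the 14, 9 were at or below the dim guide on average, namely Adgre1, Csf1r, Ptprc, Itgam, Cd14, Fcgr1, Mrc1, Aif1 and Cd163. The other 5, Cd68, Lyz2, Tyrobp, Mertk and Cx3cr1, were above it. Lyz2, which encodes lysozyme, was at 6.97 and 7.23 in line A and 9.25 and 9.22 in line B without tamoxifen, a difference of 2.14 (SE 0.19, adjusted p = 0.0041). With tamoxifen it was at 7.97 and 7.77 in line A and at 9.71 and 9.08 in line B. Lyz2 was the only 1 of the 14 markers called between the lines in limma, in either condition. Of all genes 0.326% were called between the lines without tamoxifen and 0.532% with it. The part of macrophages in the changes of the CC ligands was not tested. In bulk RNA, fewer cells of a type and less RNA per cell cannot be told apart.

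**Figure D2:**
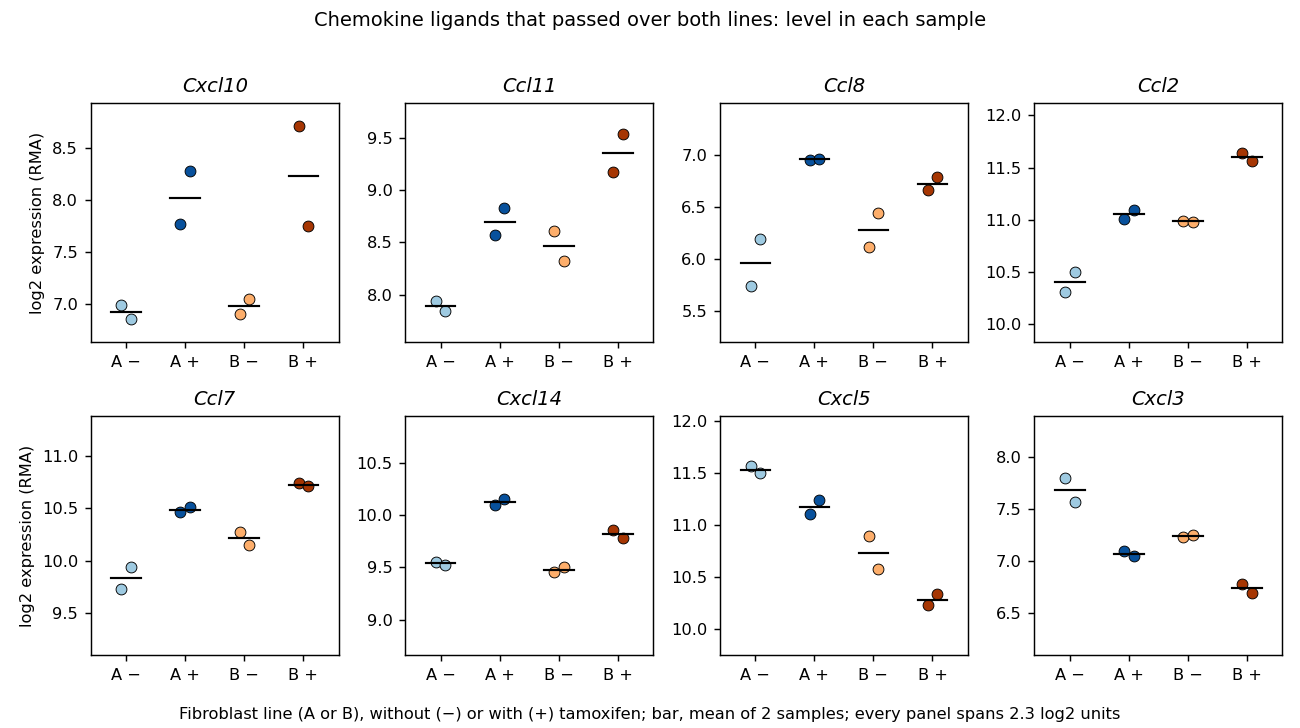
Log2 level in each sample of the 8 ligands that passed over both lines; each point is a sample, the bar is the mean of 2 samples, and each panel spans the same range on the y axis. Cxcl10 lay between 6.85 and 7.05 in the 4 untreated samples and between 7.75 and 8.71 in the 4 treated ones, while Cxcl3 and Cxcl5 were lower with tamoxifen in each line.

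Cxcl10, the interferon-induced attractant of activated T cells that binds Cxcr3, showed the largest change among the 34 ligands, 2.26-fold. It read 6.99 and 6.85 in line A without and 7.77 and 8.27 with tamoxifen, and 6.91 and 7.05 in line B without and 8.71 and 7.75 with it. Untreated samples lay near the dim guide of 6.89, close together in both lines and far from every treated sample. The treated line B samples, however, differed from each other by 0.96. Its log2 fold change was 1.18 (SE 0.18, adjusted p = 0.012), 1.10 in line A and 1.25 in line B (SE 0.28 each). Within either line it did not pass (adjusted p = 0.19 and 0.31). Over both lines its call was lost without line A PKM2 replicate 1 (adjusted p = 0.051), line A PKM2 replicate 2 (0.058) or line A PKM1 replicate 2 (0.071).

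The other ligands of Cxcr3 did not pass. Cxcl9, induced mainly by interferon gamma, was at 6.87 and 7.04 in line A without and 6.93 and 6.93 with tamoxifen, and at 6.84 and 6.83 in line B without and 7.08 and 7.18 with it. Its change was 0.14 (SE 0.08, adjusted p = 0.68), and in line B the treated samples were above the untreated ones. Cxcl11 had a log2 change of -0.07 (SE 0.07) and was dim throughout. Of 29 measured genes on a list of interferon responses, 13 rose and 0 fell, with a median of 0.44. Of all genes 0.808% were called higher and 0.512% lower. The interferon list was drawn up with earlier results of these samples known, so it is no independent evidence of its direction. The mean level of that list went from between 7.04 and 7.11 to between 7.63 and 7.76 in line A, and from between 7.03 and 7.14 to between 7.62 and 7.69 in line B. Ifit1, an antiviral RNA-binding protein, rose by 2.45 (SE 0.14), and Usp18, a brake on interferon signalling, by 1.26 (SE 0.09).

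Neutrophil-attracting ligands went the other way or did not pass: 2 of 5 fell and 0 rose. Cxcl3, a ligand of Cxcr2, was lower by a factor of 1.47. It read 7.80 and 7.57 in line A without tamoxifen and 7.10 and 7.05 with it, and 7.23 and 7.26 in line B without and 6.79 and 6.69 with it. The treated line B samples were below the dim guide of 6.89, and the treated line A samples were not far above it. Every treated sample was below every untreated one. This is a log2 fold change of -0.56 (SE 0.07, adjusted p = 0.0054), with -0.61 in line A (SE 0.10, adjusted p = 0.051) and -0.50 in line B (SE 0.10, 0.27).

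Cxcl5, a further Cxcr2 ligand, was lower by a factor of 1.32. Its levels were 11.56 and 11.50 in line A without and 11.11 and 11.24 with tamoxifen, and 10.89 and 10.58 in line B without and 10.23 and 10.33 with it. Samples did not overlap within a line, but line B was below line A in both conditions. The log2 fold change was -0.40 (SE 0.08, adjusted p = 0.045), -0.36 in line A and -0.45 in line B (SE 0.12 each). This call was close to the threshold. It was lost with arrays shifted to a common median (adjusted p = 0.092), with every probe set tested on its own (0.052), and, with adjusted p from 0.058 to 0.21, without any 1 of the samples except line B PKM2 replicate 2.

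Cxcl1, the mouse ligand also known as KC, did not pass. It was at 8.62 and 8.66 in line A without and 8.34 and 8.36 with tamoxifen, and at 8.24 and 8.50 in line B without and 8.51 and 8.39 with it. Treated samples were below untreated ones in line A, and in line B they overlapped. The change was -0.11 (SE 0.09, adjusted p = 0.80), -0.29 in line A and 0.08 in line B (SE 0.11 each). Cxcl2, also called MIP-2, was dim, at 5.52 and 5.73 in line A without and 5.36 and 5.39 with tamoxifen, and at 5.19 and 5.59 in line B without and 5.18 and 5.58 with it. Its change was -0.13 (SE 0.12, adjusted p = 0.80).

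Cxcl15, called lungkine after its expression in lung, had effects of opposite sign in the lines. It read 8.50 and 8.99 in line A without and 9.02 and 9.18 with tamoxifen, but 7.82 and 7.30 in line B without and 7.16 and 7.02 with it. The treated samples were above the untreated ones in line A and below them in line B. The changes of 0.35 and -0.47 (SE 0.20 each) did not pass (adjusted p = 0.76 and 0.99), and over both lines the change was -0.06 (SE 0.18, adjusted p = 0.95). The difference between the lines was -0.83 (95% interval -1.46 to -0.19, unadjusted p = 0.017, adjusted p = 1).

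Cxcl5, Ppbp, Pf4, Cxcl3, Cxcl15, Cxcl1 and Cxcl2 lie in this order on chromosome 5 in the RefSeq table. Ppbp and Pf4 encode chemokines of platelets whose symbols fall outside the rule, and they were looked up after the values of their neighbours were seen. Ppbp, whose product is processed to a neutrophil attractant, read 13.14 and 13.06 in line A without and 12.53 and 12.60 with tamoxifen, and 12.70 and 12.64 in line B without and 12.24 and 12.46 with it. It fell by 0.43 (SE 0.08, adjusted p = 0.028), with -0.54 in line A and -0.32 in line B. Pf4 had a log2 change of -0.02 (SE 0.09) and was dim, at 5.42 without and 5.40 with tamoxifen on average.

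Of the ligands known from resting tissue, Cxcl14, an attractant of monocytes and dendritic cells, rose 1.38-fold. It was at 9.55 and 9.52 in line A without and 10.10 and 10.16 with tamoxifen, and at 9.45 and 9.50 in line B without and 9.86 and 9.78 with it. The conditions did not overlap, and the untreated samples of the lines were close to each other. The log2 fold change was 0.47 (SE 0.07, adjusted p = 0.012), 0.59 in line A (SE 0.09, adjusted p = 0.033) and 0.34 in line B (SE 0.09, 0.52). Without any 1 of the 4 line A samples the adjusted p over both lines was 0.064 to 0.079.

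Cxcl12, the ligand of Cxcr4 that retains stem cells in the bone marrow, did not pass. It read 9.91 and 9.86 in line A without and 9.68 and 9.62 with tamoxifen, and 9.47 and 9.68 in line B without and 9.26 and 9.08 with it. Samples were separated within each line, and the change was -0.32 (SE 0.08, adjusted p = 0.11). Ccl25, known from thymus and gut, was at 7.97 and 8.02 in line A without and 8.34 and 8.36 with tamoxifen, and at 8.46 and 7.91 in line B without and 8.47 and 8.35 with it. Its change was 0.29 (SE 0.11, adjusted p = 0.36), and it depended on single samples and on the probe set. It was 0.41 (adjusted p = 0.024) without line B PKM2 replicate 1, 0.19 (0.72) without line B PKM2 replicate 2, and 0.17 (0.54) for the mean of its 2 probe sets.

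Ccl19, which guides cells to lymph nodes, was at 7.57 and 7.56 in line A without and 7.37 and 7.45 with tamoxifen, and at 7.47 and 7.44 in line B without and 7.43 and 7.53 with it. The change was -0.07 (SE 0.07, adjusted p = 0.84). Cxcl17, a ligand of mucosal tissues, was at 7.62 and 7.48 in line A without and 7.51 and 7.62 with tamoxifen, and at 7.57 and 7.52 in line B without and 7.46 and 7.57 with it. Its groups overlapped, with a change of -0.01 (SE 0.07). Ccl28 and the B cell attractant Cxcl13 had a log2 change of -0.05 (SE 0.07) and -0.05 (SE 0.09).

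The 5 ligands grouped as T cell attractants, a group that leaves out Cxcl10, did not pass. Ccl20, the ligand of Ccr6, was at 7.45 and 7.40 in line A without and 7.50 and 7.33 with tamoxifen, and at 7.38 and 7.14 in line B without and 7.72 and 7.60 with it. In line B the treated samples were above the untreated ones, in line A they overlapped, and the change over both lines was 0.20 (SE 0.10, adjusted p = 0.57). The difference between the lines, 0.41, had an unadjusted p of 0.032 and an adjusted p of 1. Ccl17, a ligand of Ccr4, was at 6.90 and 7.01 in line A without and 6.89 and 6.90 with tamoxifen, and at 6.87 and 7.04 in line B without and 7.05 and 7.10 with it, a change of 0.03 (SE 0.07). Ccl22, which shares that receptor, had a log2 change of -0.18 (SE 0.07, adjusted p = 0.33) and was dim. Xcl1, which draws dendritic cells, had a log2 change of -0.08 (SE 0.07). Cx3cl1, a membrane-bound ligand, was at 7.67 and 7.58 in line A without and 7.34 and 7.38 with tamoxifen, and at 7.42 and 7.55 in line B without and 7.50 and 7.39 with it. The change was -0.15 (SE 0.07, adjusted p = 0.56), and that of the membrane-bound scavenger receptor and ligand Cxcl16 was 0.16 (SE 0.09).

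The 12 ligands not given sample by sample, Ccl1, Ccl3, Ccl4, Ccl6, Ccl22, Ccl24, Ccl26, Ccl28, Cxcl11, Cxcl13, Cxcl16 and Xcl1, had values between 5.84 and 6.86 in all samples, below the dim guide. Their changes ran from -0.18 to 0.16, the smallest adjusted p was 0.33, and no signal above background can be claimed for them. In all, the 4 treated samples were above the 4 untreated ones in 6 ligands (17.6%, beside 2.56% of all genes), Ccl2, Ccl5, Ccl7, Ccl8, Cxcl10 and Cxcl14. They were below them in 2 (5.88%, beside 2.74%), Cxcl3 and the dim Ccl22. These differ from the ligands called by limma in Ccl5 and Ccl22, which did not pass, and in Ccl11 and Cxcl5, which passed but overlapped between the lines. Within each line separately, treated samples were above untreated ones in both lines for 9 ligands (26.5%, beside 4.48% of all genes) and below them in both for 4 (11.8%, beside 4.7%).

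Ccl2, Ccl7, Ccl8 and Cxcl14 rose in line A when the lines were tested separately in a fit of the 4 group means. These 4 of 34 ligands are 11.8%, beside 0.502% of all genes called in line A. In line B limma called 0 ligands, and 0.0201% of all genes passed. The limma unadjusted p in line B was under 0.05 for 14 ligands, beside 962 of all 19938 genes. The fit of the 4 line B samples alone also called 0. Line A had 10 ligands and 1614 genes at an unadjusted limma p under 0.05. Line B replicates were further apart, with a median absolute difference over all genes of 0.15 in both conditions, against 0.11 without and 0.078 with tamoxifen in line A. The fit of group means, however, gives a ligand the same SE for either line. There Ccl11 had its smaller unadjusted limma p for line B (0.00029, beside 0.00056), and Ccl2 for line A (0.00013, beside 0.0002). The adjustment depends on the p-values of all genes. With its smaller unadjusted p in line B, Ccl11 still had the larger limma adjusted p there (0.16, beside 0.075 in line A). The lower count of ligands in line B therefore does not show smaller changes there. Why fewer of all genes had small p-values in line B was not tested. Tested for a difference between the lines, 0 ligands and 0% of all genes passed in limma. At an unadjusted p under 0.05 were 6 ligands, beside 565 of all 19938 genes. The line A count was 0 without any 1 of the 4 line A samples and 7 without line B PKM1 replicate 1 or line B PKM1 replicate 2. It was 1 with arrays shifted to a common median, and 7 in a fit restricted to line A.

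**Figure D3:**
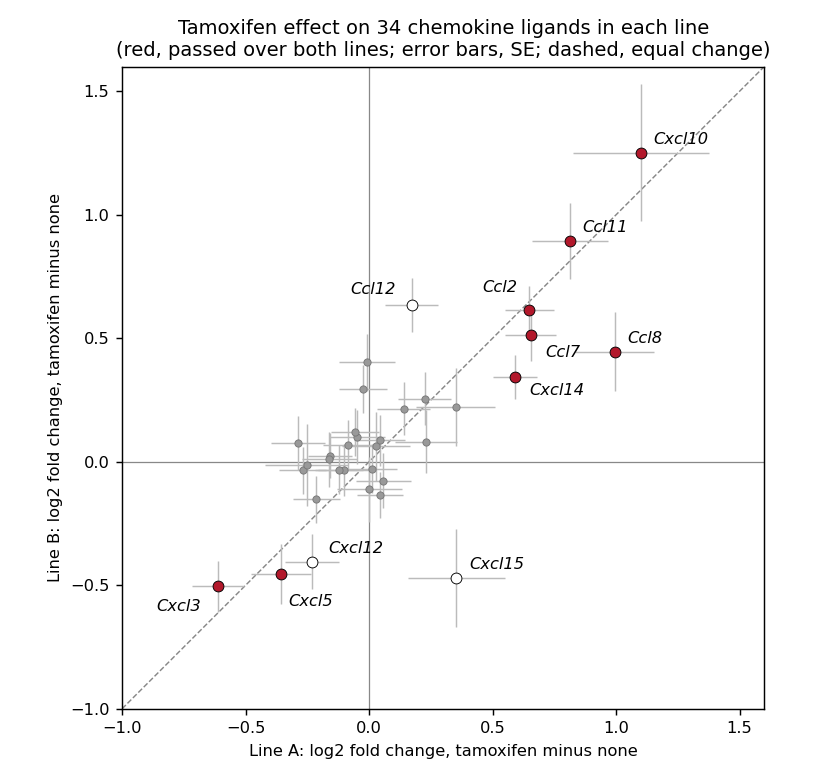
Log2 fold change with tamoxifen in line A (x axis) and line B (y axis) for the 34 ligands; points are estimates, bars SE, and the dashed line marks equal changes. Red points passed over both lines and named white points did not; Ccl2 is at 0.65 and 0.61, Ccl12 at 0.17 and 0.64, and Cxcl15 at 0.35 and -0.47.

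Between the lines, the neutrophil-attracting Cxcl5 and Cxcl15 were lower in line B and the Ccr2 ligand Ccl12, dim in all samples, was higher. Without tamoxifen 1 ligand passed, Cxcl5, lower in line B by 0.80 (SE 0.12, adjusted p = 0.041), beside 0.326% of all genes. With tamoxifen 3 passed, beside 0.532% of all genes. Cxcl15 was lower in line B by a factor of 4.03 (log2 difference -2.01, SE 0.20, adjusted p = 0.0052) and Cxcl5 by 1.86 (-0.89, SE 0.12, adjusted p = 0.022), and Ccl12 was higher by 0.84 (SE 0.11, adjusted p = 0.017). All 8 values of Ccl12 were below the dim guide, so no signal above background can be claimed on either side of this difference. Ccl12 was not among the genes tested without the dimmest 30%, where 2 ligands passed. Without tamoxifen Cxcl15 differed by -1.18 (SE 0.20) and missed the threshold (adjusted p = 0.064), and Ccl12 by 0.38 (SE 0.11, 0.45).

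Ccl2 was higher in line B in every sample of each condition, by 0.58 without and 0.55 with tamoxifen (SE 0.10 each), and did not pass (adjusted p = 0.069 and 0.068). Ccl7 differed by 0.38 and 0.24 (SE 0.10 each), Ccl11 by 0.58 and 0.66 (SE 0.15 each) and Cxcl3 by -0.44 and -0.33 (SE 0.10 each), with adjusted p from 0.18 to 0.72. These comparisons use the same samples as those of tamoxifen, so the sets of differences are not independent. Macrophage markers had a median difference of 0.29 without and 0.43 with tamoxifen, higher in line B, and their part in the higher CC ligands was not tested.

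The call of Cxcl5 without tamoxifen was lost, leaving a count of 0, without any 1 of the line A samples or of the line B PKM2 samples, and with arrays shifted to a common median. With tamoxifen the count was 0 without line A PKM1 replicate 1 or line A PKM1 replicate 2. It was 1, with Cxcl15, without line A PKM2 replicate 1, line A PKM2 replicate 2, line B PKM1 replicate 1 or line B PKM1 replicate 2.

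**Figure D4:**
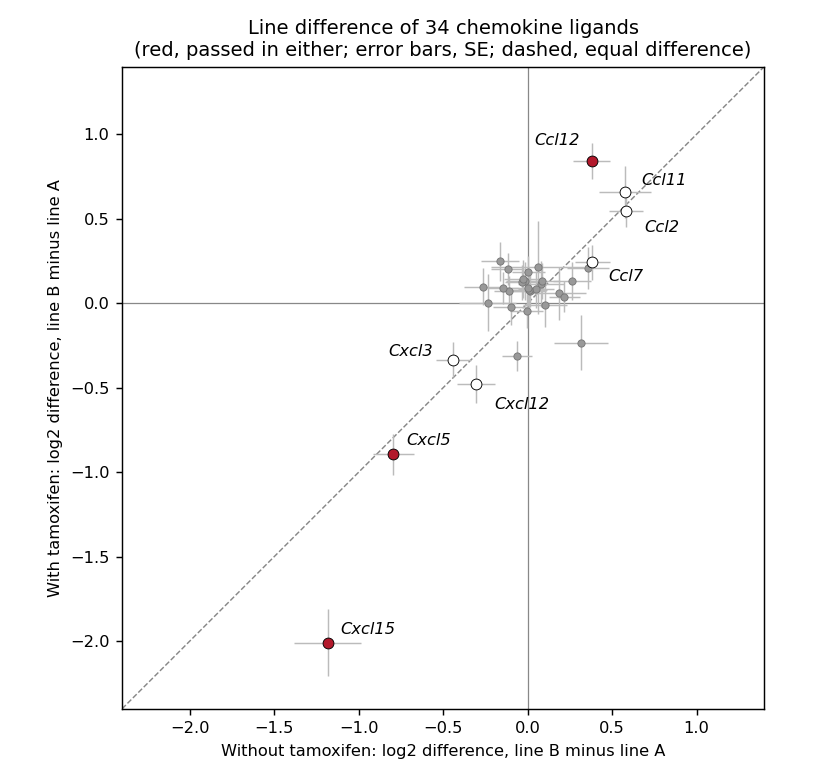
Log2 difference between the lines, line B minus line A, without tamoxifen (x axis) and with it (y axis) for the 34 ligands; points are estimates, bars SE, and red points passed in either comparison. Cxcl15 lies at -1.18 and -2.01 and Cxcl5 at -0.80 and -0.89, while Ccl2 and Ccl11, named but not passing, lie above 0 on both axes.

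Other genes of the pathway were read from fixed lists. Of 22 chemokine receptors and decoy receptors 0 passed with tamoxifen in limma (3 had an unadjusted p under 0.05, beside 1964 of all 19938 genes). The median change of the receptors was 0.00. At or below the dim guide were 14, among them the monocyte receptor Ccr2, the eosinophil receptor Ccr3 and the neutrophil receptor Cxcr2. The smallest p belonged to the scavenging receptor Ackr4 (0.30, SE 0.09, adjusted p = 0.21) and to Cxcr6, the receptor of Cxcl16 (0.22, SE 0.08, 0.35).

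Of 29 genes of the NF-kappaB pathway and its targets 0 passed in limma, with a median of 0.00. The limma unadjusted p was under 0.05 for 2 of them, beside 1964 of all 19938 genes. The cytokine gene Il6 came closest, at 7.73 and 8.34 in line A without and 8.79 and 8.93 with tamoxifen, and at 8.67 and 8.42 in line B without and 8.88 and 9.58 with it (0.75, SE 0.16, adjusted p = 0.060). Vcam1, an adhesion molecule for white blood cells, had a log2 change of 0.20 (SE 0.08, adjusted p = 0.40).

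Among 14 proteases that can cut chemokines 2 rose and 0 fell, beside 0.808% of all genes called higher and 0.512% lower. Those that rose were the collagenase Mmp13 (1.45, SE 0.15, adjusted p = 0.0017) and the stromelysin Mmp3 (1.21, SE 0.19, adjusted p = 0.012). The list's median was 0.06. The cathepsin gene Ctsl had a log2 change of 0.26 (SE 0.07, adjusted p = 0.15). Markers of neutrophils (9 measured, all at or below the dim guide), T cells (8) and epithelium (11) had 0 genes past the threshold in limma and no gene at an unadjusted p under 0.05. Of 9 endothelial markers 1 fell, beside 0.512% of all genes, the transcription factor gene Erg (-0.44, SE 0.07). Of the 13 fibroblast markers 2 rose, beside 0.808% of all genes, the matrix proteoglycan genes Lum (1.33, SE 0.17) and Dcn (0.88, SE 0.15).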

How the data were processed

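RNA of 8 samples was hybridised to Affymetrix arrays. The authors normalized the deposited log2 values with RMA in Affymetrix Expression Console, per the series' design text, which corrects background, equalises the arrays' distributions and averages probes on the log2 scale. No source used here gives its version. Of 35556 probe sets, 21789 carried 1 symbol in the platform annotation and gave 19938 genes, each represented by its brightest probe set. Gene IDs of 21698 of these probe sets were found in the RefSeq table (GRCm38.p6), which changed no symbol.

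Differences were tested with limma 3.58.1 (R 4.3.3). P-values were adjusted by the Benjamini-Hochberg method across the 19938 genes, and 0.05 was the threshold. Line and tamoxifen were the terms for the effect in both lines (5 residual degrees of freedom). Effects in each line and between lines came from the 4 group means (4 residual degrees of freedom). The script was tested on simulated data. Groups came from the sample titles. The ligands, lists and tests were chosen with earlier results of these data known. Ligands were described sample by sample if they were Ccl2, Ccl7, Cxcl10 or neutrophil-attracting, passed in any comparison, or averaged above the olfactory receptor guide. Alternatives covered array scaling, a filter on dim genes, the variance prior, array weights, the choice of probe set, the line term and leaving out each sample.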

Additional observations from a re-analysis of the deposited data

Results flagged for a closer look

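Of the 34 ligands 1 was separated by tamoxifen in opposite directions in the lines, and it was picked for this pattern. The share of all genes with the pattern was not counted, so it cannot be called unusual. In this ligand, Cxcl15 or lungkine, both treated samples were above both untreated ones in line A and below them in line B. The effect in line B minus that in line A was -0.83 on the log2 scale (SE 0.28), with an unadjusted p of 0.017 and an adjusted p of 1 over all genes in limma, so the difference did not pass.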

How the results depend on the processing

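No paired analysis was possible because the labels number no replicates. The count over both lines, 8, was 7 to 11 under the other scalings, filters, priors, weights and probe set choices, with Ccl5, Ccl25 and Cxcl12 added under array weights and Ccl8 not tested without the dimmest 30% of genes. It was 3 with no term for the line, and 4 to 8 with a sample left out. Without the line term the adjusted p was 0.25 for Ccl2, 0.15 for Ccl11, 0.062 for Ccl7, 0.14 for Cxcl3 and 0.77 for Cxcl5. The line A count, 4, was 1 with arrays shifted to a common median, 7 with array weights, 7 with line A samples alone, and 0 to 7 with a sample left out. The counts for line B and for the difference between the lines were 0 in every alternative run. Between lines, the count without tamoxifen, 1, was 0 with the common median and 0 to 1 with a sample left out, and the count with tamoxifen, 3, was 0 to 3 with a sample left out. The causes were not tested. Among ligands described one by one, 3 that did not pass changed sign. Ccl17 (0.03) was -0.0456 with array weights and ran from -0.0187 (line B PKM2 replicate 1 left out) to 0.0721 with a sample left out. Cxcl15 (-0.06) was 0.0629 with array weights and -0.2393 to 0.128 with a sample left out, above 0 for line B PKM2 replicate 1 (0.128) or line B PKM1 replicate 2 (0.0529). Cxcl17 (-0.01) was 0.0067 with the common median, 0.0058 after a second quantile normalization, 0.0407 with array weights and -0.0405 to 0.0176 with a sample left out, above 0 for replicate 1 of each of the 4 groups. A fit that leaves out a sample assumes that the lone sample of its group varies like the other groups. No detection calls were used here, so signal over background limits what can be said of the 15 ligands not above the olfactory receptor guide, Ccl8 and Ccl12 among them.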
